A study of Mus musculus with 7 samples.

Results

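Lymphatic vessels of the pancreas were followed here through 6 genes that mark lymphatic endothelial cells, Lyve1, Flt4, Reln, Prox1, Pdpn and Mmrn1, chosen by name out of 33864 genes listed in any of 3 count tables. Single-cell RNA-seq libraries, 1 per mouse, had been made from the whole pancreas of 7 C57BL/6 mice aged 2 months. In 3 i4F mice (i4F-B line) the reprogramming factors Oct4, Sox2, Klf4 and c-Myc could be switched on in every tissue by doxycycline, through 1 copy of a cassette inserted in the Pparg gene and 1 copy of the rtTA transactivator in the Rosa26 locus, and the mice drank doxycycline at 1 mg/ml for 7 days. The 2 WT mice drank the same doxycycline without carrying the cassette. The 2 caerulein mice were wild type and received the pancreatitis-inducing peptide caerulein at 100 µg/kg in 7 hourly injections a day on 2 days, and their labels state no doxycycline. Because the cassette is ubiquitous, the factors could act in any cell of the gland, endothelium included.

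Lymphatic capillaries drain fluid and immune cells from tissue, and their endothelial cells are set apart from those of blood vessels by the transcription factor Prox1. VEGF-C and VEGF-D, the main lymphatic growth factors, signal through the receptor encoded by Flt4 (VEGFR-3), while Lyve1 encodes a hyaluronan receptor, Pdpn the membrane mucin podoplanin, Reln the secreted protein reelin and Mmrn1 the matrix protein multimerin-1. Several of these genes are also used elsewhere: Lyve1 by tissue-resident macrophages, Pdpn by fibroblasts, mesothelium and some macrophages, Prox1 by pancreatic duct and islet cells, and Flt4 by some blood endothelial cells.

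A library held 4327 to 15138 cells and 15469018 to 64784216 UMIs (unique molecular identifiers, each standing for 1 captured transcript), with a median of 1248.5 to 4247 UMIs per cell. The library of i4F mouse 3 stood apart. It was the shallowest at 1248.5 UMIs per cell, 41.2% of its cells had fewer than 500 detected genes, and 6.30% of its cells carried a macrophage label against 35.6% and 39.6% in i4F mice 1 and 2. Calls against WT that it altered are therefore also given without it. For i4F against caerulein, edgeR called 0 members in each of the 5 groups of cells tested below, with i4F 3 and without it. Prox1 over all cells went from 1.86 (edgeR adjusted p = 0.582) to -0.77 (0.185) without it. Without i4F 3 this comparison called 8.38% of all genes over all cells and 0.957% in endothelial labels. It called 9.96% in macrophage, 11.4% in stellate and 3.23% in ductal labels. Any pair of libraries shared 3 to 39 cell barcodes. Library names fell into 2 letter series, AL for WT 1 and i4F 1 to 3, and AM for WT 2 and both caerulein mice, so the series and the treatments were largely tied together. Cells were grouped by the labels deposited with the tables, which had been given by hand to clusters of each condition apart and rest on the same counts; differences between labels are therefore descriptions and carry no test, while mice were compared between conditions within groups of labels.

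The 6 genes lie on 6 mouse chromosomes of build GRCm38, all protein coding: Lyve1 at chr7:110850607-110863239 on the minus strand, Flt4 at chr11:49609263-49652739 on the plus strand, Reln at chr5:21884454-22344702 on the minus strand, Prox1 at chr1:190118035-190170714 on the minus strand, Pdpn at chr4:143267431-143299564 on the minus strand and Mmrn1 at chr6:60924976-60989378 on the plus strand. RefSeq windows (GRCm38.p6) were found for 5 of the 6, all but Lyve1. The 250 bases before the RefSeq start of 3 genes are shown (RefSeq and the positions above can place a start differently, and for Flt4 the RefSeq start lies inside the span above), since these genes stand for the main patterns below: Flt4 and Reln, whose counts lay mostly in endothelial labels, and Pdpn, the gene that passed the test in stellate cells. Capitals mark matches, on either strand, to the searched motifs GGGCGG (GC box), ACAAAG (SOX) and CACGTG (E-box).
Flt4, chr11:49609429-49609678, plus strand: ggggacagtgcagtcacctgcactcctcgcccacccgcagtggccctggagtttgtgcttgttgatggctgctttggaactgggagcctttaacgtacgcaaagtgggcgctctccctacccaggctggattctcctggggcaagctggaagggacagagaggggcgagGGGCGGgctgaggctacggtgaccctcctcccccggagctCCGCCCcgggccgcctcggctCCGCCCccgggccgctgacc
Reln, chr5:22344706-22344955, minus strand: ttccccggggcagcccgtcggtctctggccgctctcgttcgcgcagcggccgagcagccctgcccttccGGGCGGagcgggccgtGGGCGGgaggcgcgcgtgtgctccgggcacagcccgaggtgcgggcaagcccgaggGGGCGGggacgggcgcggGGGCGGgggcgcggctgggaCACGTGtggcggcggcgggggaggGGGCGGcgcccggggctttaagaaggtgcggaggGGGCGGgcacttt
Pdpn, chr4:143299565-143299814, minus strand: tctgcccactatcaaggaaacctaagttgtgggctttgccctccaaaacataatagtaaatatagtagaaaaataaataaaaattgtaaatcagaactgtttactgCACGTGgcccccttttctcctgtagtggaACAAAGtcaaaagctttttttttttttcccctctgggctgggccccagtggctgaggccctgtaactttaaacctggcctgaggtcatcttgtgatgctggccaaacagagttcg
The Flt4 window held 3 GC boxes and no other searched motif, with a GC content of 68.4%. That of Reln held 6 GC boxes and 1 E-box at 80.0% GC. The Pdpn window was the poorest in GC of the 3, at 43.2% against a median of 52.4% over all windows, and held 1 SOX match 115 bases and 1 E-box 144 bases before the start. These motifs were common: of 32851 windows, 32.7% held a GC box, 16.5% the SOX letters and 6.02% the E-box. The other motifs searched had no match in these 3 windows and occurred in 6.75% (AP-1, TGANTCA), 1.6% (octamer, ATGCAAAT) and 3.2% (KLF, GGGTGTGG) of all windows. A match describes the letters and was not tied to binding of any factor.

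The lymphatic signature was concentrated in 1 small label of the WT mice. The label Lymph_nodes held 38 cells of WT 1 and 50 cells of WT 2, and in these the level of Lyve1, as UMIs per 1000000 UMIs of those cells (CPM), was 6178 and 4921, with at least 1 Lyve1 UMI in 100% and 98% of cells. Flt4 reached 1145 and 603 CPM, Reln 931.5 and 678.8 CPM, Prox1 513 and 434 CPM, and Pdpn 513 and 440 CPM. All 5 genes listed in the WT table were thus present together in both mice. Ccl21a, a lymphatic chemokine that draws dendritic cells and T cells, made up 37601 CPM in WT 1. Genes of lymph node stroma (Ccl19, Madcam1, Cr2) and B cell genes had 0 UMIs there, and T and NK cell genes summed to 0 and 6.29 CPM. The data therefore go against the name of the label: by their genes these were cells with lymphatic endothelial markers, and they are counted here with the endothelial labels. No such label exists in the i4F and caerulein tables, where each endothelial cell carries the single label Endothelial.

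The other WT endothelial labels, Endothelial_1 and Endothelial_2, carried little of the signature. Together they had 0 Reln UMIs in either mouse, which allows at most 1.43 and 1.22 CPM by a floor of 3 UMIs. Lyve1 stood at 1.43 and 3.25 CPM, Pdpn at 0.477 and 2.03 CPM, and Prox1 at 4.29 and 2.84 CPM. Flt4 was the exception at 77.3 and 56.1 CPM, and within these labels it was higher in Endothelial_1 (90.6 and 59.1 CPM) than in Endothelial_2 (16.01 and 23.7 CPM) in both mice.

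**Figure D1:**
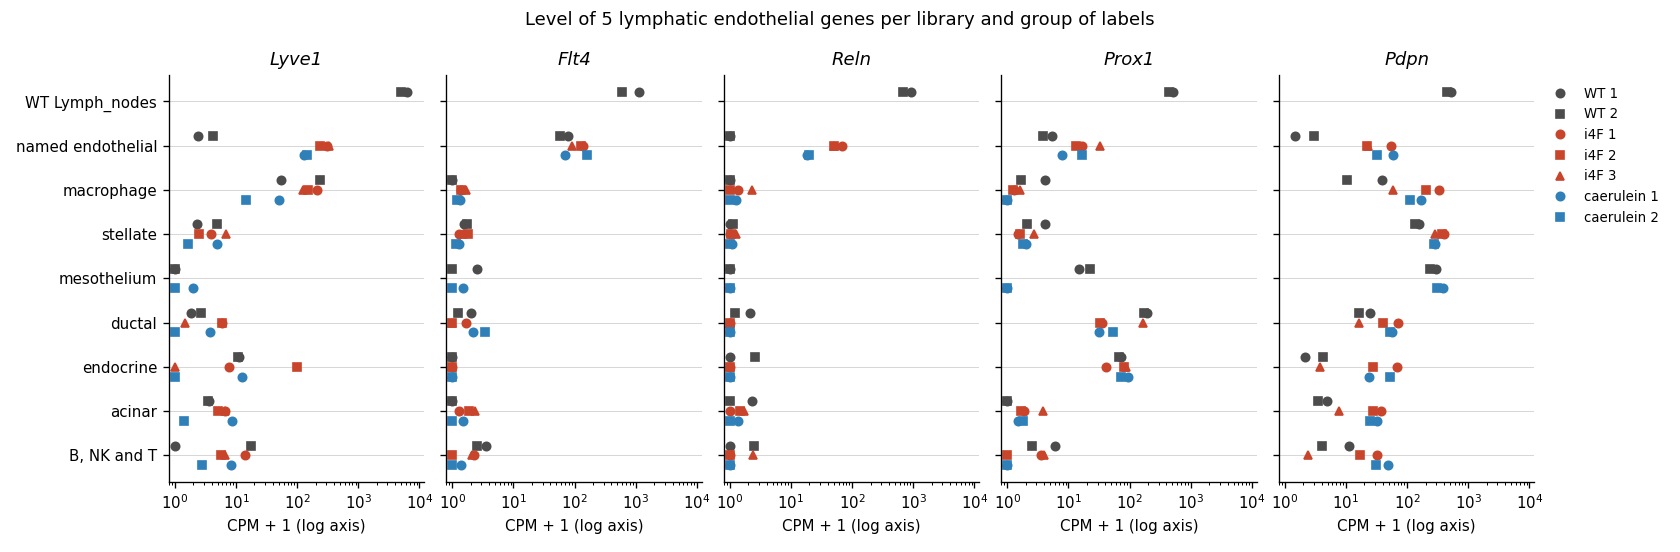
CPM plus 1 (log axis) of Lyve1, Flt4, Reln, Prox1 and Pdpn per mouse (points; colour gives the group and shape the mouse) in groups of labels (rows). All 5 genes were high in the WT label Lymph_nodes, Lyve1 was also seen in macrophage labels, Prox1 in ductal and endocrine labels, and Pdpn in stellate and mesothelium labels.

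Mmrn1 had a row in the caerulein table alone and was not analysed here in the other groups. It had 34 UMIs in 19 cells of caerulein 1 and 10 UMIs in 6 cells of caerulein 2. Of these, 25 and 9 UMIs lay in endothelial labels, at 21.0 and 28.6 CPM, so both mice held most of the few molecules in endothelium. Macrophage labels held the next 5 and 1.

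To follow lymphatic cells through all 7 mice without relying on the WT label, cells with at least 1 UMI of at least 2 of Flt4, Reln and Prox1 were counted. Lyve1 and Pdpn were left out of the count because macrophages and stroma use them. WT 1 had 42 such cells and WT 2 had 44, which is 0.971% (95% exact Clopper-Pearson interval 0.700 to 1.31) and 0.696% (0.506 to 0.933) of all cells. The i4F mice had 13, 8 and 22, or 0.133%, 0.0974% and 0.289%, and the caerulein mice 15 and 7, or 0.0991% and 0.0995%. The 2 WT mice thus lay above all 5 others, at 0.833% ± 0.194 (SD, n = 2) against 0.173% ± 0.102 (n = 3) and 0.0993% ± 0.000253 (n = 2). Without i4F 3 the i4F mice were at 0.0974% and 0.133%. This separation ended when cells with at least 2 of the 5 members were counted, Lyve1 and Pdpn included, at 2.82% and 1.55% in WT mice, 2.65%, 1.40% and 0.736% in i4F mice and 1.82% and 0.426% in caerulein mice. Intervals cover counting error only.

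The share of endothelial cells as a whole differed too, and its part in that difference was not tested. Endothelial labels made up 26.8% and 19.95% of cells in WT mice, 3.17%, 5.44% and 8.72% in i4F mice and 3.70% and 3.92% in caerulein mice. Within endothelial labels the lymphatic cells numbered 36 and 42 in WT mice, 10, 6 and 18 in i4F mice and 11 and 6 in caerulein mice. Their share there was 3.10% and 3.33% (mean 3.22% ± 0.159, n = 2) in WT mice, 3.22%, 1.34% and 2.71% (2.42% ± 0.969, n = 3) in i4F mice, and 1.96% and 2.17% (2.07% ± 0.148, n = 2) in caerulein mice. WT and i4F mice overlapped on this measure, and the caerulein mice lay below WT but within the range of i4F mice. With UMIs of all 3 genes required, the share of endothelial-label cells was 1.98% and 2.06% in WT mice, 0.965%, 0.671% and 1.21% in i4F mice, and 0.357% and 0% in caerulein mice (0 of 276 cells in caerulein 2, which allows up to 1.09%). The WT mice lay above the other 5 on this stricter measure, which rested on 23 and 26, 3, 3 and 8, and 2 and 0 cells. The 1.09% allowed for caerulein 2 lay above i4F 1 and i4F 2 and below i4F 3. The upper end of its exact interval, 1.33%, lay above all 3 i4F values. No test was made of either share. In WT mice 34 and 40 of the cells with at least 2 of the 3 genes were in Lymph_nodes, and 6 in WT 1 were labelled Ductal, where Prox1 is used by duct cells. Both shares depend on depth. With cells thinned to 1000 UMIs and shallower cells left out, the endothelial share with at least 2 genes was 4.545% and 2.40% in WT mice. It was 5.93%, 1.61% and 3.90% in i4F mice and 1.43% and 1.695% in caerulein mice. The part of depth in the stricter measure was not tested.

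**Figure D2:**
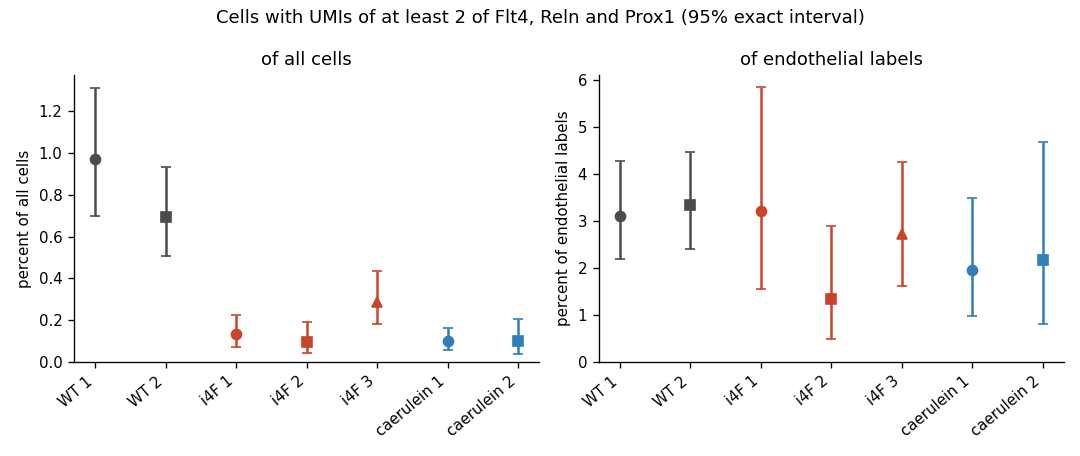
Share of cells (y axis, percent) with UMIs of at least 2 of Flt4, Reln and Prox1 in each mouse (x axis), among all cells (left) and among endothelial labels (right); bars are 95% exact intervals for counting error. WT mice stood at 0.696% and 0.971% of all cells, above the highest other mouse at 0.289%, while within endothelial labels the intervals of the mice overlapped.

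The cells so found in endothelial labels carried Lyve1 in every group. Lyve1, which was not used to choose them, stood at 5581 and 4440 CPM in WT mice, 3425, 7404 and 5169 CPM in i4F mice, and 4993 and 5875 CPM in caerulein mice, and the groups overlapped. In the remaining endothelial cells Lyve1 was 19.1 to 104.8 CPM in every mouse. Pdpn, also not used in the choice, was 456 and 350 CPM in WT mice and 209, 359 and 323 CPM in i4F mice. In caerulein mice it was 247 and 0 CPM, the latter from only 6 cells, whose 0 UMIs allow up to 608 CPM by the floor of 3 UMIs. Ccl21a was 34210 and 39116 CPM in WT mice, 11379, 11501 and 23850 CPM in i4F mice, and 34256 and 17220 CPM in caerulein mice, so that the i4F mice lay below WT and on both sides of caerulein 2. Mmrn1 stood at 840 and 1418 CPM in these cells of the caerulein mice against 6.83 and 6.45 CPM in other endothelial cells.

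Reln and Lyve1 were found together in single cells. Of the endothelial-label cells with a Reln UMI, 32 in WT 1 and 38 in WT 2, every one also had a Lyve1 UMI. The same held for all 8, 6 and 19 Reln cells of the i4F mice and all 11 and 4 of the caerulein mice. This did not hold for Flt4: of 160 and 162 WT endothelial cells with a Flt4 UMI, 21.3% and 24.1% had a Lyve1 UMI. These shares describe cells of the same libraries and depend on their depth.

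Over all cells of a library, Flt4, Reln and Prox1 were lower in every i4F and caerulein mouse than in both WT mice. Flt4 was 18.3 and 11.8 CPM in WT mice, 1.32, 2.60 and 5.24 CPM in i4F mice, and 1.64 and 3.10 CPM in caerulein mice. Reln was 6.96 and 5.48 CPM in WT mice, 0.562, 0.821 and 3.10 CPM in i4F mice, and 0.479 and 0.351 CPM in caerulein mice. For both genes the i4F mouse nearest to WT was mouse 3. Lyve1 was 46.6 and 58.2 CPM in WT mice, 42.1, 36.9 and 32.8 CPM in i4F mice, and 22.1 and 7.25 CPM in caerulein mice. The share of all genes whose CPM separated the groups in this way was not counted. The order of the mice is therefore not read as particular to these genes. In sums over all cells, fewer cells of a type and less RNA per cell cannot be told apart.

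With edgeR's quasi-likelihood test on UMI sums per mouse, all 7 mice in 1 fit, none of the 5 testable members passed an adjusted p of 0.05 over all cells. For i4F against WT, 0 of 5 were called where 0% of all 18264 genes tested were called, 3 had an unadjusted p under 0.05 (as did 6342 of all genes), and DESeq2 called 2 (Flt4 and Pdpn) beside 23.6% of all genes. The log2 fold change was -1.93 ± 0.56 (SE) for Flt4 with an adjusted p of 0.0772, and -1.73 ± 0.71 for Reln with an adjusted p of 0.136. That of Lyve1 was -0.12 ± 0.48 (edgeR adjusted p = 0.877). For caerulein against WT, 0 of 5 were called against 9.58% of all genes, 5 had an unadjusted p under 0.05 (7122 of all genes), and DESeq2 called 4 (all but Lyve1) beside 29.8% of all genes. Here Flt4 changed by -2.30 ± 0.65 (edgeR adjusted p = 0.0627), Reln by -3.44 ± 0.87 (0.0533) and Lyve1 by -1.40 ± 0.53 (0.107). For i4F against caerulein 0 of 5 were called against 0% of all genes, with 1 at an unadjusted p under 0.05 (2596 of all genes) and 0 by DESeq2.

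These calls turned on the settings of the fit, the use of i4F 3 among them. Without i4F 3, edgeR called Flt4, Reln, Prox1 and Pdpn in both comparisons against WT, 4 of 5 members. There 49.7% of all genes were called for i4F and 46.6% for caerulein. In caerulein against WT, i4F 3 acts only through what all mice share in the fit, such as the estimated spread. The fold changes there moved little, Flt4 from -2.30 to -2.33 and Reln from -3.44 to -3.40. Without i4F 3 the log2 fold change of Flt4 in i4F mice was -2.56 (edgeR adjusted p = 0.00296), that of Reln -2.79 (0.00117) and that of Prox1 -4.86 (0.000338). With that share of all genes called, the count of members is not read as particular to them.

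**Figure D3:**
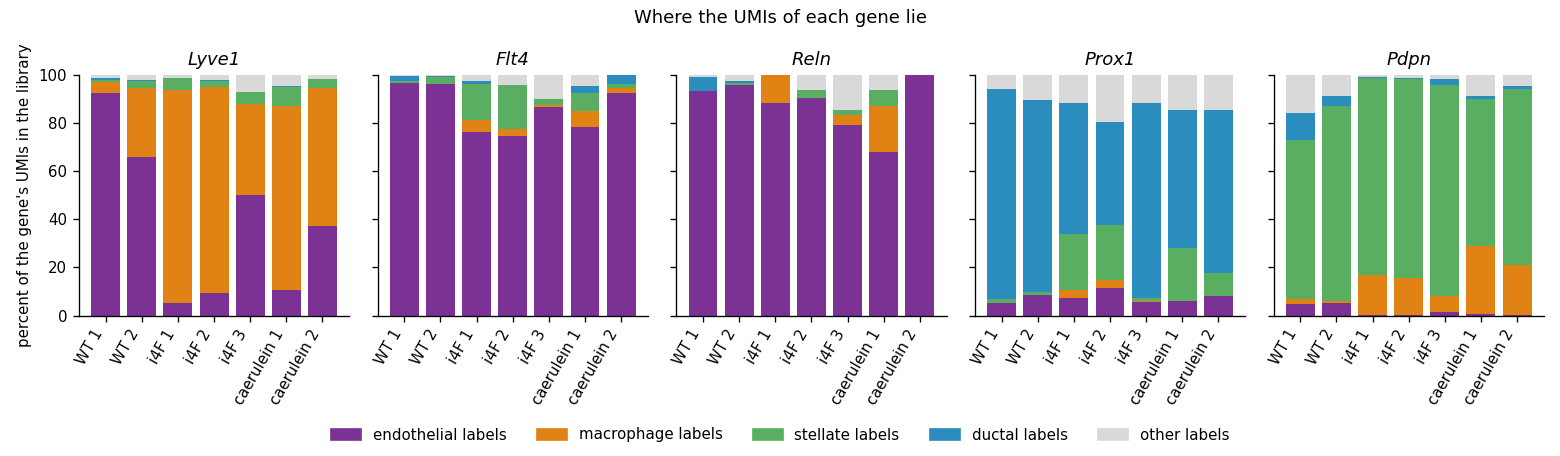
Share of each gene's UMIs in a library (y axis, percent) that lay in endothelial, macrophage, stellate, ductal and other labels, per mouse (x axis). Flt4 and Reln lay mostly in endothelial labels in every mouse, macrophage labels held 4.46% and 28.4% of Lyve1 UMIs in WT mice and 38.1% to 88.4% in the other mice, while ductal labels held 42.6% to 87.6% of Prox1 UMIs and stellate labels 61.1% to 87.6% of Pdpn UMIs.

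Within endothelial labels the i4F mice overlapped with WT for Lyve1, Flt4 and Reln. These sums set aside the share of endothelial cells among all cells, but not the share of lymphatic cells among endothelial cells. Lyve1 was 328 and 302 CPM in WT mice and 304, 231.5 and 329 CPM in i4F mice. Reln was 49.3 and 41.2 CPM in WT mice and 68.1, 48.7 and 49.4 CPM in i4F mice. Flt4 was 134 and 89.3 CPM in WT mice and 138, 127 and 91.1 CPM in i4F mice. Prox1 was 15.9, 12.2 and 31.2 CPM and Pdpn 54.5, 20.9 and 22.1 CPM in i4F mice, on both sides of the WT values for Pdpn and below them in 2 of 3 mice for Prox1. None of 5 members was called for i4F against WT (0.221% of 8157 genes tested were), 0 had an unadjusted p under 0.05 (1452 of all genes did) and DESeq2 called 0. The fitted log2 fold changes by edgeR were -0.05 for Lyve1, 0.16 for Flt4, 0.35 for Reln, -0.46 for Prox1 and 0.21 for Pdpn, with adjusted p from 0.502 to 0.939. Without i4F 3 Prox1 was at -1.08 (edgeR adjusted p = 0.111).

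The caerulein mice had lower levels of 3 members in sums over endothelial labels. Cells with at least 2 of Flt4, Reln and Prox1 were 1.96% and 2.17% of these labels, against 3.10% and 3.33% in WT. The part of this share in the levels was not tested. Lyve1 was 130 and 146 CPM, Reln 17.6 and 19.0 CPM, and Prox1 6.71 and 15.9 CPM, against 31.2 and 29.0 CPM of Prox1 in WT mice. For Lyve1 and Reln both caerulein mice lay below all 5 other mice. Flt4 did not share this pattern at 69.6 and 155.5 CPM, with 1 mouse below and 1 above every WT value, and Pdpn was 57.9 and 31.7 CPM against 27.6 and 28.6 CPM in WT mice.

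These differences did not pass the test with all 7 mice. None of 5 members was called for caerulein against WT (3.51% of all genes were), although 3 had an unadjusted p under 0.05 (1570 of all genes), and DESeq2 called 0. The edgeR log2 fold change was -1.13 ± 0.28 for Lyve1 (adjusted p = 0.0664), -1.23 ± 0.31 for Reln (0.0729) and -1.60 ± 0.55 for Prox1 (0.155). Leaving out i4F 3, edgeR called all 3, at adjusted p of 0.0129 (Lyve1), 0.0378 (Reln) and 0.0421 (Prox1), where 10.1% of all genes passed. With cells holding at least 2 of Flt4, Reln and Prox1 removed from every mouse, Lyve1 was at 1.17 (edgeR adjusted p = 0.196). For i4F against caerulein, 0 of 5 were called against 0.637% of all genes, 2 had an unadjusted p under 0.05 (824 of all genes) and DESeq2 called 0; Reln differed by 1.58 ± 0.31 (edgeR adjusted p = 0.0665) and Lyve1 by 1.08 ± 0.26 (0.132). Macrophage genes were also present in the endothelial labels, where the macrophage list summed to 32.1 and 35.9 CPM in WT, 476, 353 and 129 CPM in i4F and 3879 and 2142 CPM in caerulein mice; their part in the result was not tested.

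Lyve1 was counted mainly in endothelial labels in WT mice and i4F 3, and mainly in macrophage labels in the other 4 mice. Of all Lyve1 UMIs in a library, endothelial labels held 92.6% and 65.9% in WT mice, 5.26%, 9.55% and 49.9% in i4F mice, and 10.8% and 37.1% in caerulein mice. Macrophage labels held 4.46% and 28.4% in WT mice, 88.4%, 85.4% and 38.1% in i4F mice, and 76.4% and 57.3% in caerulein mice. Macrophage labels themselves made up 2.40% and 8.13% of cells in WT mice, 35.6%, 39.6% and 6.30% in i4F mice and 50.3% and 40.3% in caerulein mice; the part of these cell numbers in the Lyve1 shares was not tested.

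As CPM within macrophage labels the order was different. Lyve1 stood at 53.8 and 231 CPM in WT mice, 211, 152 and 124.5 CPM in i4F mice, and 49.6 and 13.8 CPM in caerulein mice. Both caerulein mice lay below every other mouse, and the i4F mice lay between the 2 WT mice. A Lyve1 UMI was found in 11.5% and 27.4% of macrophage-label cells in WT mice, 12.6%, 5.65% and 12.1% in i4F mice, and 6.12% and 1.59% in caerulein mice. Thinned to 1000 UMIs per cell, the shares were 5.83% and 21.9%, then 9.19%, 4.48% and 7.95%, then 3.62% and 1.18%; shallower cells were left out, 1 and 57 in WT, 633, 621 and 65 in i4F and 1104 and 470 in caerulein mice. In B, NK and T labels, which should lack Lyve1, a UMI was found in 0% and 1.29% of cells in WT mice (0 of 119 cells in WT 1, which allows up to 2.52%), 1.19%, 0.421% and 0.0851% in i4F mice and 0.704% and 0.251% in caerulein mice, below the macrophage share of the same library in each case. Their median depth was 612 to 2355 UMIs, against 1719.5 to 5778.5 in macrophage labels.

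In each group Lyve1 lay unevenly over the macrophage labels. Of its UMIs in WT mice, Macrophages_1 held 34 and 341 (121 and 339 CPM) and Macrophages_2 held 1 and 0. In i4F mice Macrophages_1 held 2229, 1180 and 171 UMIs (225, 160 and 352 CPM), Macrophages_2 held 3, 7 and 0, and Macrophages_3 held 20, 2 and 22. In caerulein mice Macrophages_1 held 52 and 10 UMIs (3.73 and 2.40 CPM), Macrophages_2 held 1041 and 61 (131 and 63.8 CPM), and Macrophages_3 held 2 and 0. The labels were named in each condition apart, so equal numbers do not mark equal cells.

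By edgeR, 0 of the 2 testable members, Lyve1 and Pdpn, were called in macrophage labels for i4F against WT (0.0327% of 12218 genes tested were), with 1 at an unadjusted p under 0.05 (2481 of all genes) and 1 by DESeq2 (Pdpn; 4.29% of all genes). For caerulein against WT 0 of 2 were called against 5.72% of all genes, with 2 at an unadjusted p under 0.05 (3411 of all genes) and 2 by DESeq2 (13.5% of all genes). For i4F against caerulein 0 of 2 were called against 1.78% of all genes, with 1 at an unadjusted p under 0.05 (2694 of all genes) and 1 by DESeq2 (Lyve1; 8.7% of all genes). The log2 fold change of Lyve1 was 0.32 ± 0.68 in i4F mice (adjusted p = 0.831) and -2.04 ± 0.76 in caerulein mice (0.133), and i4F exceeded caerulein by 2.36 ± 0.73 (0.118). The make-up of the macrophage labels moved too: the dendritic cell list summed to 12936 and 9503 CPM in WT, 689, 220 and 6620 CPM in i4F and 54.3 and 54.0 CPM in caerulein mice, and the neutrophil list to 733 and 84.8, 1637, 5458 and 3416, and 628 and 466 CPM. Their part in the result was not tested.

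Macrophage-label cells with a Lyve1 UMI carried genes of tissue-resident macrophages in each of the 7 mice. Mrc1, the mannose receptor, was 834 against 125 CPM and 1705 against 387 CPM in cells with and without Lyve1 in WT mice. It was 1451 against 219, 1285 against 183 and 1387 against 156 CPM in i4F mice, and 1393 against 335 and 1135 against 264 CPM in caerulein mice. The direction was the same in 7 of 7 mice. The mean log2 difference was 2.53 ± 0.43 (SD, n = 7 mice) for Mrc1, 3.09 ± 0.89 for the haemoglobin scavenger receptor Cd163, 2.66 ± 1.29 for the folate receptor Folr2 and 2.42 ± 1.14 for the phosphatidylserine receptor Timd4. It was 1.92 ± 0.66 for the transcription factor Maf and 1.80 ± 0.85 for the scavenger receptor Stab1.

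Other genes were read in the same way, 24 in all, chosen after the data were seen and given without a test, since the split and the labels rest on the same cells. The general macrophage genes Csf1r, Adgre1 and C1qb were higher in cells with Lyve1 in 7 of 7 mice, by 0.92, 0.78 and 0.74 on average, C1qa and C1qc in 6 of 7 and Cd68 in 4 of 7. The dendritic cell receptor gene Flt3 was lower in 7 of 7 mice, with a mean log2 difference of -1.995 ± 1.75, and so was the neutrophil gene S100a9 at -6.39 ± 3.00, while Cd209a was lower on average with 1 mouse higher. Macrophage labels held at most 7 UMIs of Flt4, 6 of Reln and 3 of Prox1 in any mouse. Flt4 was higher in cells with Lyve1 in 4 of 7 mice, and Prox1 and Reln in 3 of 7 each. In every mouse most Lyve1 UMIs of macrophages lay in 1 of the macrophage labels, so the mix of labels moved with this split, and its part in the differences was not tested. The median depth of cells with a Lyve1 UMI was higher than that of cells without in 4 of 7 mice and lower in both WT mice and i4F 3.

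**Figure D4:**
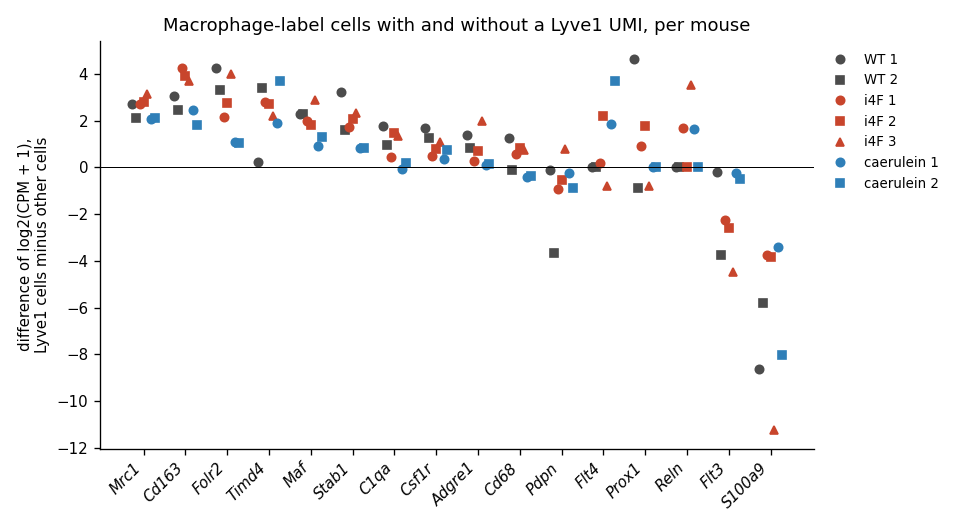
Difference of log2(CPM + 1) between macrophage-label cells with and without a Lyve1 UMI (y axis) for resident macrophage, general macrophage, lymphatic, dendritic and neutrophil genes (x axis), 1 point per mouse. Mrc1, Cd163, Folr2, Timd4, Maf and Stab1 were above 0 in all 7 mice, with Mrc1 between 2.05 and 3.14. From few UMIs, Flt4 was above 0 in 4 mice and Prox1 and Reln in 3 each, and Reln was never below 0.

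Pdpn was the 1 member that passed the test, and it did so in stellate cells, the fibroblast-like cells of the pancreas. In stellate labels it stood at 156 and 133 CPM in WT mice, 399, 370 and 287 CPM in i4F mice, and 281 and 269 CPM in caerulein mice. All 5 i4F and caerulein mice lay above both WT mice. Pdpn rose by 1.45 ± 0.21 on the log2 scale in i4F mice (edgeR adjusted p = 0.0177) and by 1.09 ± 0.22 in caerulein mice (0.0259). It was 1 of 3 testable members called in each comparison, Lyve1 and Prox1 being the others, where 20.6% of 14806 genes tested were called for i4F and 17.2% for caerulein. For i4F against caerulein, 0 of 3 were called against 0.459% of all genes, with 0 at an unadjusted p under 0.05 (2520 of all genes) and 0 by DESeq2, and Pdpn differed by 0.36 ± 0.20 (edgeR adjusted p = 0.432).

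The size of the stellate Pdpn change was stable while its call was not. Leaving out any 1 of 5 mice ended the call in i4F mice. The log2 fold change was then 1.47 (WT 1 left out), 1.44 (WT 2), 1.44 (i4F 2), 1.45 (caerulein 1) or 1.46 (caerulein 2). In caerulein mice the call also ended, at 1.11, 1.08, 1.09, 1.00 and 1.21 in that order. Leaving out a WT or caerulein mouse left 1 mouse in a group. Without i4F 2 the edgeR adjusted p was 0.0598 in i4F and 0.0502 in caerulein mice. There 0.188% and 8.84% of all genes were called, against 20.6% and 17.2% with all mice. For i4F mice the loss of the call is therefore not read as particular to Pdpn. Without i4F 3 the adjusted p was 0.000471 in i4F and 0.0025 in caerulein mice, where 47.7% and 39.7% of all genes passed, and Prox1 was then called too in i4F mice, at -1.70 (0.0346). With the library-name series as a term the change was 1.41 (edgeR adjusted p = 0.074) and 1.13 (0.121), where 0.108% and 0.0473% of all genes were called. Within a series, the i4F mice stood at 287 to 399 CPM against 156 CPM in WT 1, and the caerulein mice at 269 and 281 CPM against 133 CPM in WT 2.

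Both WT mice also had the lowest shares of stellate cells with Pdpn. A Pdpn UMI was found in 38.8% and 30.7% of stellate-label cells in WT mice, 85.3%, 80.0% and 41.9% in i4F mice, and 76.7% and 56.7% in caerulein mice. After thinning to 1000 UMIs per cell the shares were 12.0% and 11.9%, then 33.1%, 29.1% and 20.3%, then 24.0% and 22.4%, with both WT mice still below the others; this left out 69 and 166, 314, 194 and 217, and 93 and 110 cells. Acinar labels, which should lack Pdpn, had a UMI in 0.352% and 0.218% of WT cells, 7.91%, 6.94% and 0.610% of i4F cells and 5.77% and 3.47% of caerulein cells. Their median depth was 431 to 2213.5 UMIs, against 2554.5 to 9918 in stellate labels.

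The WT labels differed among themselves. Pdpn was 134 and 111.5 CPM in Quiescent_Pancreatic_Stellate_1 and 264 and 229 CPM in Quiescent_Pancreatic_Stellate_2. The WT label Activated_Pancreatic_Stellate had 3 and 2 Pdpn UMIs, or 7.64 and 4.599 CPM. In i4F mice Pdpn was 396, 366.5 and 342 CPM in Activated_Pancreatic_Stellate_1 and 544, 503.5 and 268 CPM in Activated_Pancreatic_Stellate_2, and in caerulein mice 281 and 269 CPM in the single activated label. The collagens and other stellate marker genes ran the other way: their list summed to 33236 and 30779 CPM in WT stellate labels, 14396, 11664 and 23030 CPM in i4F and 19394 and 22849 CPM in caerulein mice. Pdpn per 1000 UMIs of these genes was 4.69 and 4.31 in WT mice, 27.7, 31.7 and 12.5 in i4F mice and 14.5 and 11.8 in caerulein mice. Mesothelial genes summed to 74.9 and 48.8 CPM in WT stellate labels, 111, 152 and 317 CPM in i4F and 47.2 and 52.7 CPM in caerulein mice. Mesothelium, labelled in WT and caerulein mice, had Pdpn at 301 and 238 CPM and 389 and 311.5 CPM.

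In macrophage labels Pdpn stood at 38.4 and 9.49 CPM in WT mice, 334, 204 and 58.1 CPM in i4F mice and 166 and 110 CPM in caerulein mice. Each i4F and caerulein mouse lay above both WT mice, of which WT 1 had 104 macrophage-label cells and 25 Pdpn UMIs. The share of all genes that separated in this way was not counted. The edgeR log2 fold change was 3.35 ± 0.89 in i4F mice (adjusted p = 0.141) and 2.76 ± 0.90 in caerulein mice (0.0990). Without i4F 3 Pdpn was called in both, at 3.79 (0.00939) and 2.78 (0.0183), where 12% and 16.5% of all genes passed. The share of macrophage-label cells with a Pdpn UMI was 5.77% and 1.75%, then 36.9%, 24.3% and 6.88%, then 28.4% and 15.2%. The share in B, NK and T labels was 1.68% and 0.862%, then 1.49%, 1.12% and 0.170%, then 6.84% and 2.76%, and in each mouse it and the acinar share lay below that of macrophage labels.

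Stellate marker genes summed to 339.5 and 1579 CPM in WT macrophage labels, 399, 240.5 and 165 CPM in i4F and 144 and 123 CPM in caerulein mice. Pdpn per 1000 UMIs of stellate marker genes was 113 and 6.01 in WT macrophage labels, 838, 850 and 352 in i4F mice and 1150 and 894.5 in caerulein mice, against at most 31.7 in stellate labels. In cells with a Pdpn UMI, Col1a1 and Col3a1 were none the less higher than in cells without in 7 of 7 mice, by 2.51 ± 2.28 and 2.72 ± 3.05 on the log2 scale, and those cells were deeper in 7 of 7 mice. The part of stellate RNA and of depth in the result was not tested. Of Lyve1 macrophage-label cells, 8.33% and 0% (0 of 141) had a Pdpn UMI in WT mice, 31.6%, 26.6% and 6.90% in i4F mice and 31.1% and 11.1% in caerulein mice.

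Over all cells of a library Pdpn was 75.0 and 72.5 CPM in WT mice, 349, 274 and 85.5 CPM in i4F mice, and 198 and 162 CPM in caerulein mice, above WT in every mouse. The edgeR log2 fold change was 2.07 ± 0.59 (adjusted p = 0.0756) and 1.69 ± 0.61 (0.0968), and without i4F 3 the first was 2.47 (0.000584). Stellate labels held 66.0% and 81.0% of Pdpn UMIs in WT mice, 81.7%, 82.8% and 87.6% in i4F mice and 61.1% and 73.1% in caerulein mice.

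By UMI totals, which also depend on cell numbers, Prox1, the lymphatic identity factor, lay more in ductal than in endothelial labels in every mouse. Ductal labels held 87.6% and 79.9% of its UMIs in WT mice, 54.3%, 42.6% and 80.8% in i4F mice and 57.3% and 67.7% in caerulein mice, while endothelial labels held 5.24% to 11.5% in any mouse. Its level in ductal labels was 195 and 172 CPM in WT mice, 35.0, 32.1 and 167 CPM in i4F mice, and 30.2 and 51.7 CPM in caerulein mice. Both caerulein mice and i4F mice 1 and 2 lay far below WT, and i4F 3 lay next to it. In endocrine labels Prox1 was 72.3 and 66.4 CPM, then 40.5, 79.2 and 86.3 CPM, then 93.1 and 71.6 CPM, and the groups overlapped. These levels lay above the ductal ones in i4F 1, i4F 2 and both caerulein mice. WT Lymph_nodes cells, at 513 and 434 CPM, lay above WT ductal labels.

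Ductal labels were added to the tests after it was seen where Prox1 lay. By edgeR, 0 of 2 testable members were called there for i4F against WT (0.00863% of 11591 genes tested were), with 0 at an unadjusted p under 0.05 (2024 of all genes) and 0 by DESeq2. For caerulein against WT 0 of 2 were called against 3.66% of all genes, with 2 at an unadjusted p under 0.05 (3568 of all genes) and 0 by DESeq2. For i4F against caerulein the count was 0 of 2 against 0.388%, with 0 and 0 (1953 of all genes had an unadjusted p under 0.05). Prox1 changed by -1.02 ± 0.62 in i4F mice (adjusted p = 0.415) and by -1.99 ± 0.73 in caerulein mice (0.119). Without i4F 3 both were called, at -2.24 (0.00112) and -2.05 (0.00117), where 26.5% and 32.2% of all genes passed. Ductal Pdpn was 24.1 and 15.5 CPM in WT mice, 69.3, 39.5 and 15.4 CPM in i4F mice and 55.2 and 51.7 CPM in caerulein mice, and i4F 3 lay just below both WT mice. Its edgeR log2 fold change was 1.29 ± 0.56 in i4F mice (adjusted p = 0.287) and 1.66 ± 0.60 in caerulein mice (0.116). Without i4F 3 ductal Pdpn was called in both, at 1.69 (edgeR adjusted p = 0.00756) and 1.605 (0.00786).

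A Prox1 UMI was found in 60.03% and 52.8% of ductal cells in WT mice, 17.2%, 10.9% and 39.5% in i4F mice and 18.3% and 15.97% in caerulein mice. At 1000 UMIs per cell it was 17.4% and 17.1%, then 3.74%, 4.62% and 18.1%, then 3.79% and 5.51%, leaving out 82 and 49, 24, 16 and 40, and 17 and 20 cells; i4F 3 then lay next to WT. In B, NK and T labels at most 0.840% of cells had a Prox1 UMI. The transcript Prox1os lies antisense to Prox1, and whether the counting used strand was not given in the sources used here. Over all cells Prox1 was 78.4 and 43.6 CPM in WT mice, 1.55, 1.62 and 27.7 CPM in i4F mice and 2.02 and 3.63 CPM in caerulein mice, with an edgeR log2 fold change of -2.20 ± 1.21 (adjusted p = 0.23) and -4.06 ± 1.51 (0.103).

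**Figure D5:**
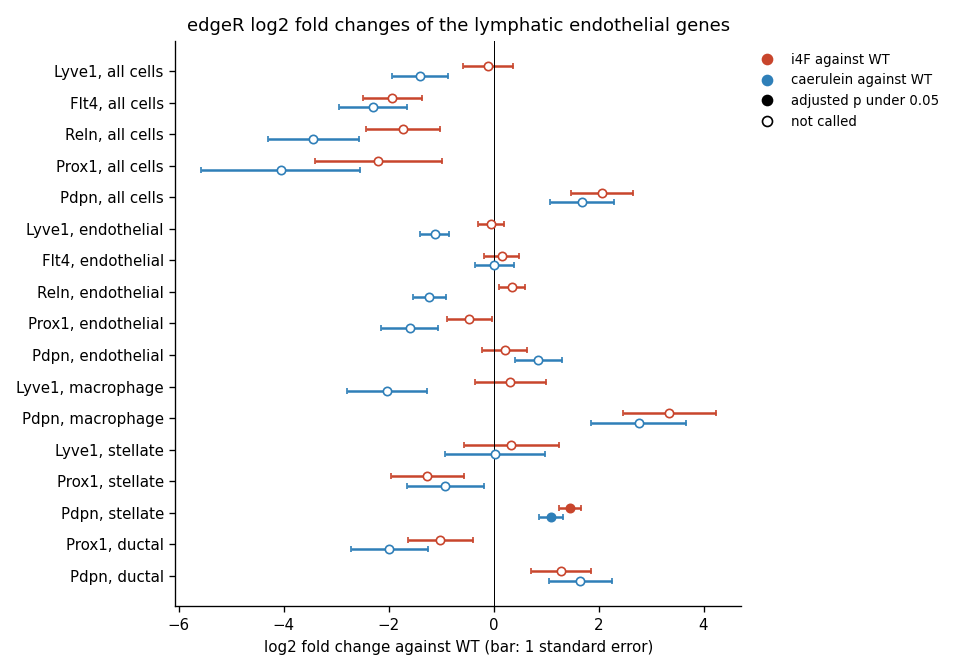
Log2 fold change against WT by edgeR (x axis; bar, 1 standard error) of each testable member in each group of cells (y axis), for i4F and caerulein mice (n = 3 and 2, against 2 WT mice). Filled points mark an adjusted p under 0.05, which was reached by Pdpn in stellate labels alone, at 1.45 in i4F and 1.09 in caerulein mice.

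The wider lymphatic pathway was read from 4 lists holding 37 genes: ligands and their processing, receptors and co-receptors, transcription factors, and other lymphatic endothelial genes. Over all cells none of 36 tested was called by edgeR for i4F against WT, with 12 at an unadjusted p under 0.05, 11 called by DESeq2 and 22 called without i4F 3, beside 23.6% and 49.7% of all genes by the same fits. Their median log2 fold change was -1.01 where that of all genes was 0.04. For caerulein against WT, 2 were called higher and 6 lower of 36, where 9.58% of all genes were called. The median of the 36 was -1.52 against -0.06 over all genes. DESeq2 called 19 and edgeR without i4F 3 called 22, beside 29.8% and 46.6% of all genes. The edgeR calls ended without i4F 2 and with the library-name term, where 0% of all genes were called. Within endothelial labels, with 24 tested, the medians were -0.04 for i4F and -0.24 for caerulein mice against WT. Those of all genes there were 0.00456 and -0.04.

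Among the ligands, Vegfd rose by 1.06 ± 0.24 over all cells of caerulein mice (edgeR adjusted p = 0.0477) while Vegfc, the other Flt4 ligand, fell by 1.46 on the log2 scale (0.0462) and Angpt1, a ligand of the receptor Tek, by 2.67 (0.0329). Of 12 receptors 3 were lower there, namely Tek at -2.82, the integrin gene Itga9 at -1.78 and the adrenomedullin receptor gene Calcrl at -1.59. Of 8 transcription factors 1 was lower, Gata2, which is needed in lymphatic valves, at -3.09. Of the other lymphatic genes Stab1, also a macrophage scavenger receptor, was higher at 3.69. All 5 had edgeR adjusted p between 0.0314 and 0.0492. Each call named in this paragraph ended without i4F 2 and with the library-name term, where 0% of all genes were called.

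Within endothelial labels none of 24 tested was called for i4F against WT (0.221% of all genes were), with 4 at an unadjusted p under 0.05, 2 by DESeq2 (3.21% of all genes) and 5 without i4F 3 (13.4%). For caerulein against WT Stab1 was higher by 1.57 and the ferroxidase gene Cp lower by 2.18 on the log2 scale (edgeR adjusted p = 0.039 and 0.0387). These 2 of 24 stood beside 3.51% of all genes, and 8 had an unadjusted p under 0.05. DESeq2 called 4 (4.83% of all genes) and edgeR without i4F 3 called 5 (10.1%). Stab1 is also a macrophage gene. Macrophage genes were higher in these labels of caerulein mice, as given above, and their part in the Stab1 call was not tested. In stellate labels 2 of 30 were higher and 2 lower in i4F mice: Nfatc1, a factor of lymphatic valves, by 1.18 and Stab1 by 1.98, and Angpt2 by -3.98 and Tek by -2.67. In caerulein mice 3 were higher (Adamts14 1.40, Nfatc1 1.09, Stab1 3.70) and 3 lower (Ackr2 -4.63, Tek -3.62, Kdr -2.09) there. These 4 and 6 of 30 stood beside 20.6% and 17.2% of all genes called. DESeq2 called 7 in i4F and 10 in caerulein mice (26.8% and 24.9% of all genes), and edgeR without i4F 3 called 18 and 16 (47.7% and 39.7%). The part of macrophage RNA in stellate Stab1 was not tested. In macrophage labels 0 of 23 were called in i4F mice, with 5 at an unadjusted p under 0.05, 1 by DESeq2 (4.29% of all genes) and 5 without i4F 3 (12%). In caerulein mice Stab1 was higher there by 1.88, and Adm (-4.998), Flt1 (-3.29) and Cp (-4.06) were lower, 4 of 23 beside 5.72% of all genes. DESeq2 called 7 there (13.5% of all genes) and edgeR without i4F 3 called 7 (16.5%). Other fits called fewer of all genes, 0.109% without i4F 1, 1.57% without i4F 2 and 0.524% with the library-name term. Nrp1 was lower in i4F than in caerulein mice at -1.55 (edgeR adjusted p = 0.0484), 1 of 23 beside 1.78% of all genes. For that comparison DESeq2 called 5 (8.7%) and edgeR without i4F 3 called 4 (9.96%). In ductal labels, 0 of 19 were called in i4F mice, with 6 at an unadjusted p under 0.05, 0 by DESeq2 and 8 without i4F 3 (26.5% of all genes). There Fxyd6 (2.57) and Sned1 (-3.41) were called in caerulein mice beside 3.66% of all genes, with 6 called by DESeq2 (9.84%) and 11 without i4F 3 (32.2%). Both calls ended with the library-name term, where 0% of all genes were called, and 0.977% were called without i4F 2.

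Across 92 sums of 1 label in 1 library, the genes whose log2(CPM + 1) most resembled each member were read by Pearson's r. Flt4 went with the endothelial genes Klhl4 (Pearson r = 0.92), Cldn5 (0.91) and She (0.89), and Reln with Nts (0.89), D330037F02Rik (0.88) and Ackr2 (0.84). Lyve1 was most like Reln (0.70) and Nts (0.68), with the macrophage gene Mrc1 next (0.64). Prox1 was most like Fgf12 (0.85) and Kif12 (0.84), and Pdpn like Ahnak2 (0.78), Sulf2 (0.75) and Tmem119 (0.73). Among the members themselves, r was 0.81 for Flt4 with Reln, 0.35 for Flt4 with Prox1 and 0.00 for Flt4 with Pdpn. The sums share libraries and depth, and these values are descriptions over 19183 genes.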

How the data were processed

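The labels gave the group of each of the 7 mice. Per the paper's methods, reads were processed by the authors with Cell Ranger (version not given in the sources used here) on the mouse build GRCm38/mm10, cells with fewer than 150 genes or more than 5% mitochondrial counts were removed, and each condition was clustered and named apart in Seurat; correction for free RNA with SoupX was stated, and whether it preceded the tables was not. The authors deposited whole-number UMI counts per gene and cell, 1 table per condition, with the cluster label of each cell. Doublet removal before deposit was not stated.

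From these counts, UMIs per gene were summed per mouse over all cells and over cells with endothelial (including Lymph_nodes), macrophage, stellate and ductal labels, and CPM was computed per sum. Groups were compared by edgeR 4.0.16 (glmQLFit, glmQLFTest, TMM, filterByExpr, two-sided) over all 7 mice, with Benjamini-Hochberg adjustment over all genes tested and a threshold of 0.05; a mouse needed 20 cells. The fits used the 25469 genes listed in every table. Mmrn1, listed in 1 table, could not be fitted and was left out of the count of lymphatic cells, which departed from the plan. Of the 6 members, 5, 5, 2, 3 and 2 passed the filter in the 5 groups of cells. DESeq2 1.42.0, other scalings and filters, the replicate block, library-name letters, leaving out each mouse, and Scrublet (scanpy 1.11.5) doublets were alternatives. Scrublet marked 0 to 5.24% of cells, and it had not worked for i4F 3 (0%) and WT 1 (0.0693%). The fit was tested on simulated data with 200 changed genes: for i4F against WT in stellate labels, 2% of those changed by 2-fold, 58% by 4-fold, 76% by 8-fold and 86% by 16-fold were called. Over all cells these were 0%, 14%, 76% and 88%. In stellate labels the simulation changed 200 of 14806 genes, while the fit of the mice called 3048 for i4F against WT. The adjustment of p depends on how many genes change, so the simulated shares need not hold for that fit.

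The members and the lists were chosen with earlier results of these data known. Where groups of mice are said to lie apart for a gene, the share of all genes that lay apart alike was not counted. All members are named; of the 37 list genes, at most 3 per list, direction, group of cells and contrast with the largest fold change among those called. Labels do not say more of the mice than 1 library each, and p-values measure the spread between these mice. Same-numbered mice did not deviate together (r from -0.375 to 0.125), so numbers were not taken as pairs.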

Additional observations from a re-analysis of the deposited data

How the results depend on the processing

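The counts below are members called by edgeR unless DESeq2 is named, and each stands against the count given above. Over all cells, i4F against WT gave 2 with DESeq2 and 1 without TMM (13.6% of all genes). It gave 0 without i4F 1 and without i4F 2 (0% of all genes each) and 4 without i4F 3 (49.7%). Caerulein against WT gave 4 with DESeq2, 3 without TMM (16.2%) and 4 with only the 2 groups (46.1%). It gave 0 without i4F 2 (0%) and 4 without i4F 3 (46.6%), and 5.77% of all genes were called without i4F 1. In endothelial labels, caerulein against WT gave 1 without TMM (3.86%), 2 without the filter (5.52%), 1 with only the 2 groups (7.18%) and 3 without i4F 3 (10.1%). It gave 3 without Lymph_nodes (4.05%) and 1 without lymphatic cells (3.95%). For i4F against WT the count was 3 without Lymph_nodes (0.813%), and for i4F against caerulein 1 without the filter (2%). Leaving out Lymph_nodes removed lymphatic cells from WT mice alone, so the counts without it tell nothing of the members. In macrophage labels, i4F against WT gave 1 with DESeq2, 1 without the filter (6.35%) and 1 without i4F 3 (12%). For caerulein against WT the count was 2 with DESeq2, 3 without the filter (10.6%) and 1 with only the 2 groups (14.5%). It was 1 in C1q-positive cells (8.82%) and 1 without i4F 3 (16.5%). For i4F against caerulein it was 1 with DESeq2, 1 without the filter (7.64%) and 1 in C1q-positive cells (5.23%). In stellate labels i4F against WT gave 0 with only the 2 groups (0.779%) and 0 with the library-name term (0.108%). It gave 0 without i4F 2 (0.188%) and 2 without i4F 3 (47.7%). For caerulein against WT the count was 0 with that term (0.0473%) and 0 without i4F 2 (8.84%). In ductal labels both comparisons against WT gave 2 without the filter (5.87% and 11.3%) and 2 without i4F 3 (26.5% and 32.2%). Caerulein against WT gave 2 there with only the 2 groups (28.4%). Where a member was called, shares of all genes under DESeq2 and without i4F 3 stand in the report. With the replicate block, 4 and 4 members were called over all cells against WT, 1 in endothelial labels (caerulein), 1 and 1 in macrophage, 2 (i4F) in stellate and 2 and 2 in ductal labels, beside 44.2% and 40.6%, 7.06%, 6.88% and 10.3%, 43.9%, and 19.4% and 23.4% of all genes; mice share only a number. Deviations of same-numbered WT and caerulein mice ran opposite, and with the numbers crossed and only these 2 groups in the fit, chosen after seeing the data, caerulein against WT called 5 members over all cells, 4 in endothelial, 2 in macrophage and 2 in ductal labels, beside 57%, 20.7%, 19.5% and 41.5% of all genes.

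These signs turned. For i4F against WT, Lyve1 over all cells was 0.14 with the library-name term and -0.36 to 0.15 with 1 mouse left out. In endothelial labels it was 0.0265 in cells with at least 500 genes, 1.66 without lymphatic cells, 6.92 without Lymph_nodes and -0.21 to 0.11 with 1 mouse left out; Flt4 was -0.0607 with the library-name term and -0.0793 to 0.41; Prox1 was 2.59 without Lymph_nodes; Pdpn was -0.39 without doublets and -0.26 to 0.46. For caerulein against WT in endothelial labels, Lyve1 was 5.86 without Lymph_nodes and 1.17 without lymphatic cells, Reln 7.42 and Prox1 1.49 without Lymph_nodes, and Flt4 -0.0497 without TMM, -0.0549 without the filter, -0.0144 with the replicate block, -0.0801 in cells with at least 500 genes and -0.54 to 0.49 with 1 mouse left out. Leaving out Lymph_nodes removes the lymphatic cells of WT mice alone, and Reln is then at 0 in both, so 7.42 depends on the prior count and is no size. In macrophage labels, Lyve1 for i4F against WT was -0.0458 in cells without collagen UMIs and -0.32 to 1.75 with 1 mouse left out, the highest without WT 2, and Pdpn for i4F against caerulein was -1.46 with the library-name term and -0.002 to 1.01. Without TMM the median of all genes moved from -0.06 to -0.46 for caerulein against WT over all cells and from 0.04 to -0.35 for i4F, and the share of calls that were higher moved from 56.5% to 22.2% for caerulein.

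The mean share of lymphatic cells among all cells was, in WT mice, 0.471% with 3 genes required, 2.18% with 2 of 5 members, 0.622% thinned and 1.19% with at least 500 genes; in i4F mice 1.60% with 2 of 5 members; and in caerulein mice 0.00991% with 3 genes, 1.12% with 2 of 5 members, 0.0407% thinned and 0.101% without doublets. Among endothelial labels it was 2.02%, 3.75%, 3.47% and 5.61% in WT mice in that order, 0.947%, 3.81% (thinned) and 4.49% (500 genes) in i4F mice, and 0.179%, 4.22%, 1.56% and 2.54% in caerulein mice. Of 44 such values 20 moved by more than the spread between mice (SD). The 44 include means with 1 mouse left out, which with 2 or 3 mice a group cannot move by more than that spread. The causes were not tested. With 2 or 3 mice a group and 6 to 42 lymphatic cells per mouse, depth limits every statement on the lymphatic endothelium.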
